A study of Ambystoma mexicanum with 12 samples.

Results

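In forelimb blastemas of the axolotl, 123 gene identifiers were both among the most abundant in the RNA and similar in level between the study's 4 groups. They were taken from the 56805 identifiers with the prefix AMEX60DD (the table lists 99081 in all, the rest with the prefix AMEX60DDU), of which they make up 0.217%. Each library's estimated counts were scaled on its column total to CPM, the usual depth-scaled count, and L was taken as log2(CPM + 0.5). The 150 identifiers with the highest mean L over 12 libraries were ranked, and the 123 whose 4 group means of L spanned less than 1 were kept. The genes were thus chosen by the values measured in these same libraries. The other 27 had a span of 1 or more and serve as the nearest comparison. Had both prefixes been ranked together, 8 of the first 150 would have carried the prefix AMEX60DDU. Mean level and span are therefore described below with no test.

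After a salamander limb is cut off, dividing progenitor cells gather under the wound skin of the stump, and this bud, the blastema, regrows what is missing. Its cells keep a record of where along the limb they lie, and retinoic acid, which CYP26 enzymes break down and talarozole (TAL) spares by inhibiting them, shifts that record towards the shoulder. In growing tissue in general, a small number of genes supplies a large part of the messenger RNA, typically those for ribosomal proteins, translation factors, the cytoskeleton and the extracellular matrix. Whether the 123 identifiers belong to these classes could not be looked up: 0 identifiers matched the RefSeq gene list used here, so no symbol, role or sequence is given for any of them.

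All animals were White (d/d) axolotls aged 3 months and 5 cm long, and each library was a pool of 3 blastemas frozen 14 days post amputation. The groups were distal blastemas (amputated through the carpals) with the solvent DMSO, with 0.1 uM TAL or with 1 uM TAL, and proximal blastemas (amputated at the upper humerus) with DMSO, each with 3 libraries. TAL or DMSO was in the water from day 4 for 7 days, so all 4 groups had carried the solvent. Because no identifier could be named, the tissue was not checked against blastema, epidermal, muscle or blood markers. The labels do not say whether blastemas of 1 animal went into more than 1 pool, so the spread given is that between pools.

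Column totals ran from 8409618 in DMSO proximal 3 to 13937318 in TAL 1 uM distal 1. Identifiers with at least 1 count numbered from 40465 in DMSO proximal 2 to 49477 in DMSO distal 1. The lowest value of any of the 123 genes in any library was 4665 estimated counts and the highest 139777. At each gene's mean count over the 12 libraries, the counting error of L was at most 0.014 (SD). It is larger in a library where the gene's count is below that mean. This covers counting error alone. Most differences described below are many times larger, but the smallest SDs about a set's median, 0.02 to 0.03, are close to it. DMSO distal 1 stood apart from the other libraries: 102 of the 123 genes had their lowest CPM in it. Summary values that it moved most are also given without it.

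Together the 123 genes took a median of 29.0% of all counts per library. In the DMSO distal libraries their share was 18.4% (95% Wilson interval 18.42 to 18.47), 31.6% and 27.6%. With 0.1 uM TAL it was 31.1%, 29.8% and 25.4%, and with 1 uM TAL 35.5%, 28.8% and 29.2%. In the proximal libraries it was 28.7%, 38.5% (38.44 to 38.51) and 28.8%. The lowest and the highest share thus belonged to 2 DMSO libraries, and the ranges of all 4 groups overlapped. The group values were 25.9% ± 6.73 for DMSO distal, 28.8% ± 2.98 for 0.1 uM TAL, 31.2% ± 3.72 for 1 uM TAL and 32.0% ± 5.60 for DMSO proximal (mean ± SD, n = 3). These SDs depended on single libraries. The library left out below is the one in each group whose removal lowered the SD most, so a fall was bound to follow. Without DMSO distal 1 that group was at 29.6% ± 2.82, without TAL 0.1 uM distal 3 at 30.5% ± 0.936, without TAL 1 uM distal 1 at 29.0% ± 0.250 and without DMSO proximal 2 at 28.8% ± 0.0412 (n = 2 each). In bulk tissue, a lower share from fewer cells of one kind cannot be told apart from one due to less RNA per cell.

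The counts were spread over many genes, with 39 of the 123 needed to reach 50% of their sum. The 10 most abundant took between 17.5% and 21.3% of it in every library. Membership was shared widely: 96 of the 123 were among the 150 most abundant AMEX60DD identifiers in each of the 12 libraries, and 109 in at least 11. The gene least often in that list was there in 6 libraries. Such sharing partly follows from the rule, which ranked mean L over these same libraries. A share of counts also grows with transcript length, which the table does not give, so the order of the genes is one of counts and not of transcript number.

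**Figure D1:**
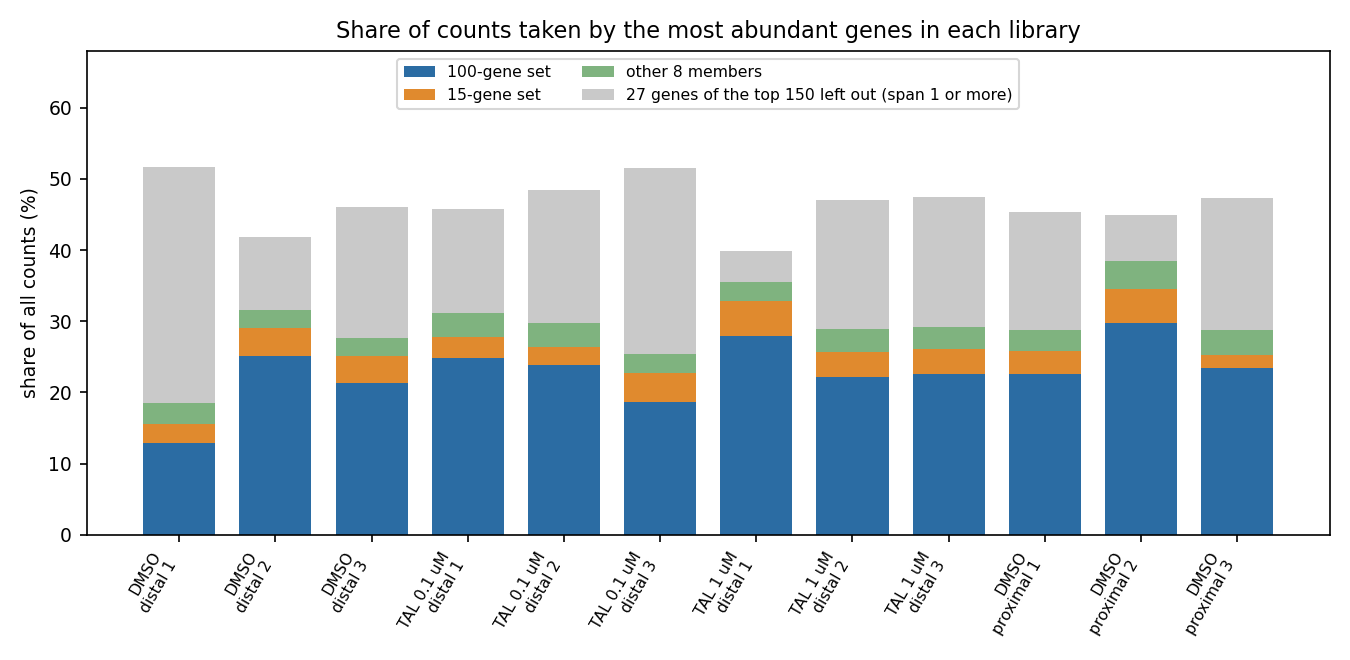
Share of all counts (%, vertical axis) in each of the 12 libraries for the 100-gene set, the 15-gene set and the other 8 of the 123 genes, with the 27 left out stacked on top in grey. The coloured part is lowest in DMSO distal 1 (18.4%) and highest in DMSO proximal 2 (38.5%), and the grey part is small where the coloured part is large.

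The 27 genes left out showed the reverse picture. Their summed share was 33.2% in DMSO distal 1 and 4.42% in TAL 1 uM distal 1, and 6.45% in DMSO proximal 2. Across the 12 libraries the 2 shares had a Pearson r of -0.960 (permutation p = 3.00e-05, adjusted over 3 relations 9.00e-05) and a Spearman rho of -0.825 (permutation p = 0.00174). Without DMSO distal 1 and TAL 1 uM distal 1, the 2 libraries farthest from the median, r was -0.921. Within groups r was -0.974 (exact permutation p = 0.00309, over 1296 arrangements). Both are shares of 1 total, so that a gain in one lowers the other by construction. The span limit also divided the 2 lists on these same values. The permutation p-values assume no such link, so nothing is read from them. The sum of both, the share of the 150, ran from 39.9% to 51.7%.

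The share of the 123 genes was also lower in libraries with more identifiers detected. Pearson's r was -0.889 over 12 libraries (permutation p = 6.00e-05, adjusted 9.00e-05), with a Spearman rho of -0.881 (permutation p = 0.00044). It was -0.793 without DMSO proximal 2 and DMSO distal 1, and -0.967 within groups (exact permutation p = 0.00386). Both values come from the same counts of a library. The permutation p-values assume no such link, so nothing is read from them. In TAL 1 uM distal 1 the 123 took 35.5% and the 150 took 39.9% of the counts, with 43721 identifiers detected. In DMSO distal 1 the values were 18.4% and 51.7%, with 49477 detected. What links the share to the number of identifiers was not tested. With the column total itself no relation passed the test (r = 0.135, permutation p = 0.672, rho = 0), and r turned to -0.168 without TAL 1 uM distal 1 and 2. Within groups it was 0.146 (exact permutation p = 0.711). The part of depth or RNA quality in the shares was not tested further.

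AMEX60DD046986 had the highest mean L of the 123. Its values were 6964, 6658 and 4670 CPM in the DMSO distal libraries, 10670, 11477 and 5502 with 0.1 uM TAL, 5798, 5418 and 4971 with 1 uM TAL, and 5004, 16365 and 13038 in the proximal libraries. In 4 libraries it was at 10670 CPM or more, 2 with 0.1 uM TAL and 2 proximal, while the third library of each of those groups lay within the range of the other distal libraries. The gene also had the largest span inside the limit, 0.92, and a within-group SD of 0.56.

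AMEX60DD006173, the second by mean L, was much steadier. It held 4599, 7842 and 6293 CPM in the DMSO distal libraries, 7954, 7652 and 5969 with 0.1 uM TAL, 9366, 7147 and 7638 with 1 uM TAL, and 7133, 10420 and 7345 in the proximal libraries. DMSO distal 1 was the lowest library and DMSO proximal 2 the highest, and all 4 groups overlapped. The next in order were AMEX60DD030130, AMEX60DD039736, AMEX60DD016343, AMEX60DD013534, AMEX60DD025725, AMEX60DD034248, AMEX60DD001331 and AMEX60DD013519, with mean L from 12.46 down to 12.07. Except for AMEX60DD046986, each of the 10 was lowest in DMSO distal 1.

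AMEX60DD025725 had the most even group means of all 123, with a span of 0.08. Its 3 values were 3700, 6591 and 5121 CPM in DMSO distal, 5656, 5070 and 4110 with 0.1 uM TAL, 5627, 4869 and 4824 with 1 uM TAL, and 5492, 5016 and 5089 in the proximal group. The lowest and the highest value both came from DMSO distal libraries, so even group means here sat on an uneven group.

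At the limit of the span, the last genes kept were AMEX60DD046986 (0.92), AMEX60DD017947 (0.91) and AMEX60DD008659 (0.87). The first left out were AMEX60DD029819 (1.02), AMEX60DD023573 (1.05) and AMEX60DD021302 (1.13). AMEX60DD017947 was the one of these 3 kept genes with its lowest mean in the proximal group, where it held 1441, 1289 and 555 CPM against 1697, 1980 and 2056 in DMSO distal, with 0.1 and 1 uM TAL between 907 and 1972. The proximal and DMSO distal values did not overlap. The span of this gene lay between the means of these groups, and the rule, which acts on group means, had nearly removed it. DMSO proximal 3, at 555 CPM against 1441 and 1289 in the other proximal libraries, lowered the proximal mean most, so the span leaned on that library. At the limit of abundance, AMEX60DD014975 at rank 150 had a mean L of 10.03 and AMEX60DD029917, the next in order, one of 10.01.

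**Figure D2:**
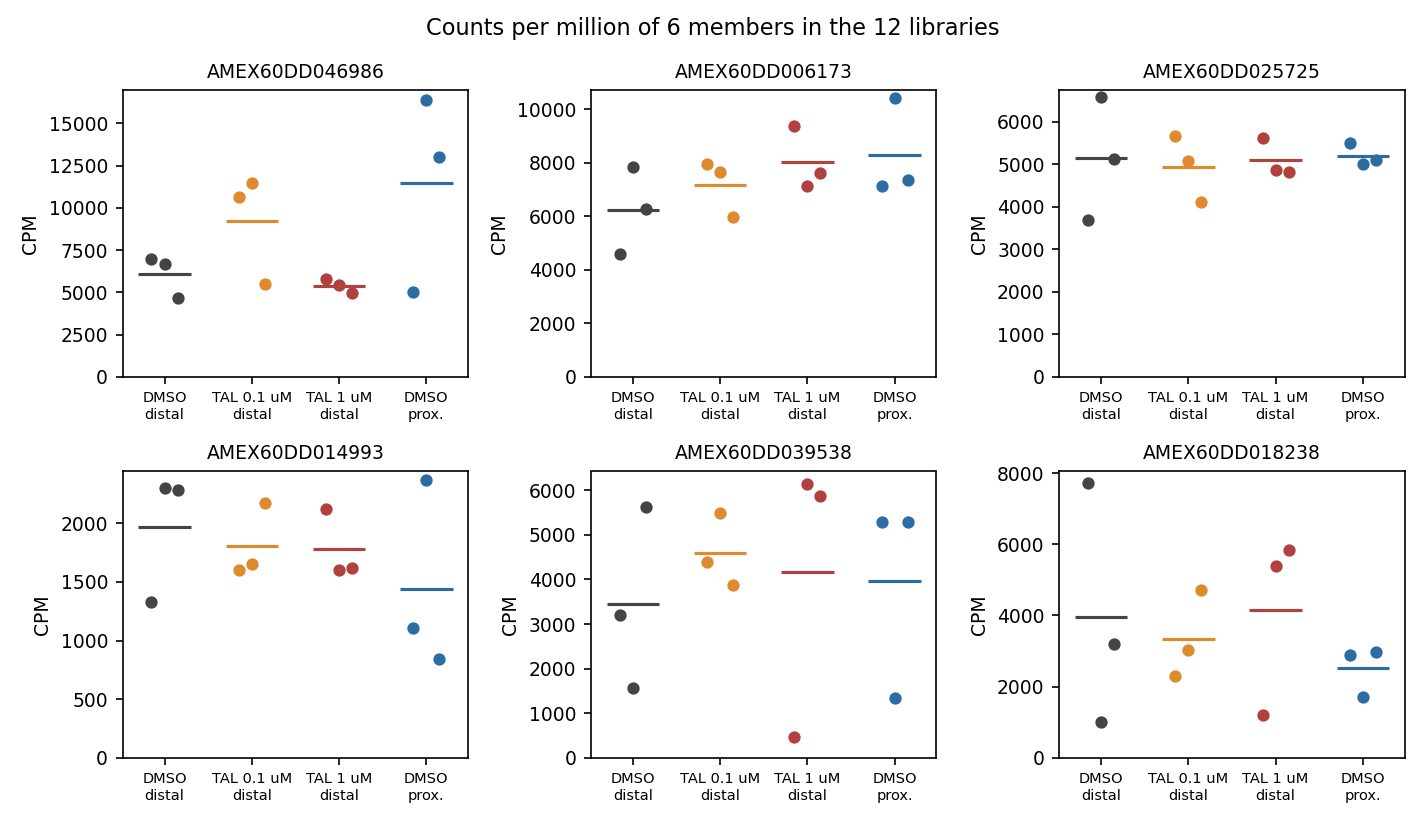
CPM (vertical axis, linear, from 0) of 6 of the 123 genes in the 4 groups, 1 point per library, with the group mean as a line. AMEX60DD025725 has level group means, AMEX60DD046986 has 4 libraries at 10670 CPM or more, and AMEX60DD039538 falls to 472 CPM in 1 library with 1 uM TAL.

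The spread between pools of 1 group was measured as the pooled within-group SD of L, with 8 residual degrees of freedom. Its median over the 123 genes was 0.33, with quartiles of 0.29 and 0.38 and a range of 0.22 to 1.30. It was under 0.5 for 114 of the 123 genes and above 1 for 2. For the 27 left out the median was 1.23, and 17 of them were above 1. A large within-group SD makes a span of 1 or more likelier by construction, so this difference partly follows from the choice of genes.

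Set beside broader or less abundant sets of identifiers, the 123 genes had about the same median SD, while the other measures differed. The 16104 identifiers of both prefixes at 1 CPM or more in every library had a median SD of 0.34, with 73.6% under 0.5. The 282 identifiers with a mean L from 8 up to that of rank 150 had a median of 0.32, with 89.4% under 0.5, against 92.7% of the 123. By edgeR's biological coefficient of variation, which allows for counting error, the median was 0.232 for the 123 (range 0.159 to 0.689) and 0.680 for all 41884 identifiers in the fit. None of these sets matches the 123 in abundance, so the differences cannot be told apart from those that go with abundance. No test was made of them, since the span limit acts on the same spread.

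**Figure D3:**
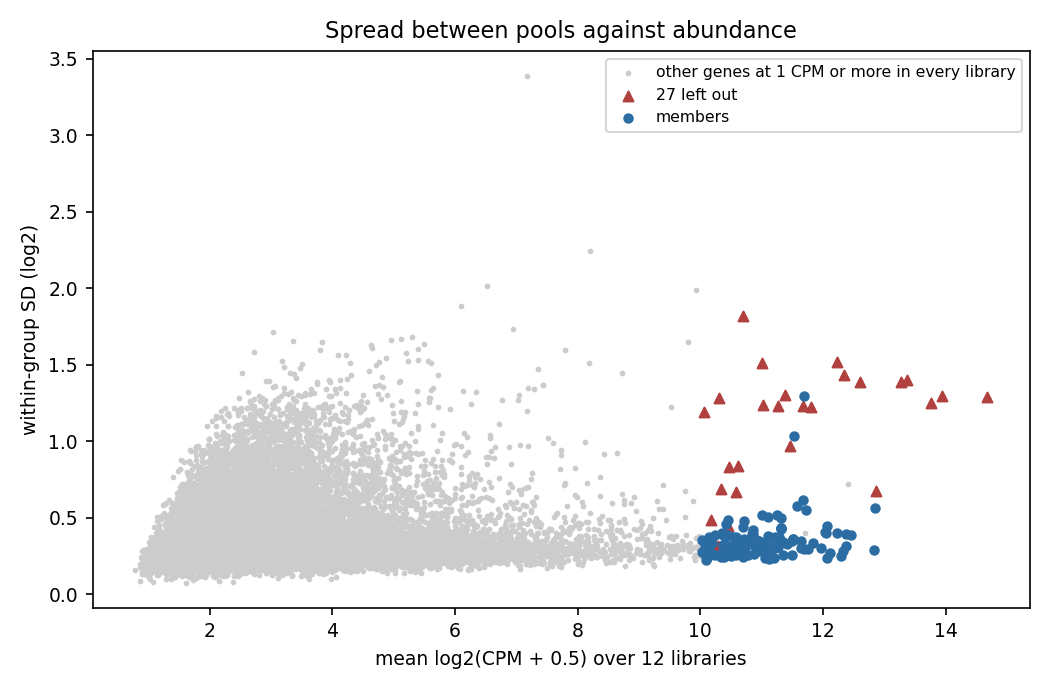
Pooled within-group SD of L (vertical axis, log2) against mean L over 12 libraries (horizontal axis), 1 point per identifier, for the 123 genes, the 27 left out and the other identifiers at 1 CPM or more in every library. The 123 genes lie in a band around 0.33 that continues the band of less abundant identifiers, while 17 of the 27 left out lie above 1.

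The median SD over the 123 genes was 0.49 in DMSO distal, 0.21 with 0.1 uM TAL, 0.20 with 1 uM TAL and 0.28 in DMSO proximal. Each of these depended on 1 library: it was 0.16 without DMSO distal 1, 0.05 without TAL 0.1 uM distal 3, 0.04 without TAL 1 uM distal 1 and 0.10 without DMSO proximal 2. These libraries were picked because leaving them out lowered the SD most, so a fall was bound to follow. Without any other library of a group its median rose, in DMSO distal to 0.52 (replicate 2) or 0.66 (replicate 3). Leaving out DMSO distal 1 lowered the pooled median from 0.33 to 0.23. When each library was centred on its median gene of the 123, the median SD fell to 0.13, against 0.33 before centring.

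The 5 steadiest genes were AMEX60DD029015 (SD 0.22), AMEX60DD025726 (0.23), AMEX60DD053480 (0.23), AMEX60DD003045 (0.23) and AMEX60DD020312 (0.24). AMEX60DD029015 held 742, 1099 and 1052 CPM in DMSO distal, 1287, 1187 and 904 with 0.1 uM TAL, 1297, 1089 and 1053 with 1 uM TAL, and 1157, 1170 and 1265 in the proximal group. Outside DMSO distal 1 all its values lay between 904 and 1297 CPM. Over the 123 genes the highest library was a median of 2.52 times the lowest, from 1.70 to 13.0 times, and 4 genes exceeded 4 times.

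The 5 most variable were AMEX60DD039538 (SD 1.30), AMEX60DD018238 (1.04), AMEX60DD008659 (0.61), AMEX60DD027994 (0.58) and AMEX60DD046986 (0.56). AMEX60DD008659 held 1798, 3709 and 2985 CPM in DMSO distal, 2636, 2119 and 4388 with 0.1 uM TAL, 7560, 4068 and 3988 with 1 uM TAL, and 3910, 4017 and 1496 in the proximal group. Its highest value was in TAL 1 uM distal 1 and its lowest in DMSO proximal 3. Single libraries carried some of these values: without TAL 1 uM distal 1 the SD of AMEX60DD039538 was 0.80, and without DMSO proximal 1 that of AMEX60DD046986 was 0.37.

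Group means of L, which the choice had kept within 1 of each other, still leaned one way. DMSO distal had the lowest of the 4 means for 97 of the 123 genes. DMSO proximal had the highest for 67 and 1 uM TAL for 49. The median span was 0.46. Without DMSO distal 1, DMSO distal was lowest for 31 genes and the median span was 0.24.

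The difference between DMSO proximal and DMSO distal means had a median of 0.40 over the 123 genes, with 112 higher in proximal, and fell to 0.10 with 89 higher without DMSO distal 1. For 1 uM TAL against DMSO distal the median was 0.36 with 116 higher, and 0.09 with 96 higher without that library. For 0.1 uM TAL it was 0.23 with 101 higher, and without that library it turned to -0.05 with 35 higher. Scaled by TMM, the value without that library was 0.04 with 79 higher, and by DESeq2 size factors 0.10 with 92 higher. All 3 comparisons share the DMSO distal libraries. Of the 16104 identifiers at 1 CPM or more in every library, 50.8% were higher in proximal, 67.7% with 1 uM TAL and 46.5% with 0.1 uM TAL. Without DMSO distal 1 these were 39.7%, 52.4% and 30.7%, and the last was 40.2% by TMM and 47.4% by DESeq2 size factors. On column totals, the 35 of the 123 thus lay near the share over all identifiers. The same medians over the 16104 identifiers were 0.01, 0.14 and -0.03 in the order proximal, 1 uM TAL and 0.1 uM TAL. Relative to those shifts, the 123 genes were 0.39, 0.22 and 0.26 higher with all 12 libraries in the same order, and 0.19, 0.08 and 0.11 higher without DMSO distal 1. Without DMSO proximal 2 the first of these was 0.20.

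In edgeR's quasi-likelihood test, 0 of the 123 genes passed an adjusted p of 0.05 in any of the 6 comparisons between groups, and DESeq2 also called 0. For DMSO proximal against DMSO distal, edgeR called 0.0119% of all 41884 identifiers tested and DESeq2 1.21% of the 40143 it adjusted. The DESeq2 percentages are all of identifiers with an adjusted p, which numbered from 36548 to 47780 by comparison. At an unadjusted p under 0.05 edgeR had 13 of the 123 there, against 6.35% of all identifiers. For 0.1 uM TAL against DMSO distal, edgeR called 0% and DESeq2 0.322%. In edgeR 1 of the 123 had an unadjusted p under 0.05 there, against 3.23% of all. For 1 uM TAL against DMSO distal the percentages were 0.0239% and 1.04%, with 3 of the 123 unadjusted against 4.79% of all.

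For 1 uM against 0.1 uM TAL they were 0.0119% and 0.991%, with 2 of the 123 unadjusted against 6.04% of all. For 1 uM TAL against DMSO proximal they were 0% and 1.4%, with 2 of the 123 unadjusted against 6.76%. For 0.1 uM TAL against DMSO proximal they were 0.0143% and 0.658%, with 1 of the 123 unadjusted against 3.42%. The lowest adjusted p among the 123 was 0.686 (edgeR with Benjamini-Hochberg adjustment), for 1 uM TAL against DMSO proximal. Because the span limit removed genes with large group differences, nothing is read from these counts.

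The genes moved together between pools. Pearson's r of their deviations from group means, over 12 libraries, was computed for all 7503 pairs, and its median was 0.843 with quartiles of 0.562 and 0.943. It exceeded 0.9 in 39.0% of the pairs and 0.7 in 64.8%, and was below 0 in 4.74%. By a permutation test with 100000 resamples and Benjamini-Hochberg adjustment over all pairs, 5528 pairs passed 0.05, 5419 of them with a positive r and 109 with a negative one. All CPM values of a library share 1 total, and removing group means leaves 8 degrees of freedom for 12 values, so these p-values are approximate. Without DMSO distal 1 the median r was 0.719. With all 12 libraries, each centred on its median gene of the 123, the median r was much lower, as given in the last section. No such values are given for pairs of other identifiers, so moving together is not shown to be particular to these genes.

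**Figure D4:**
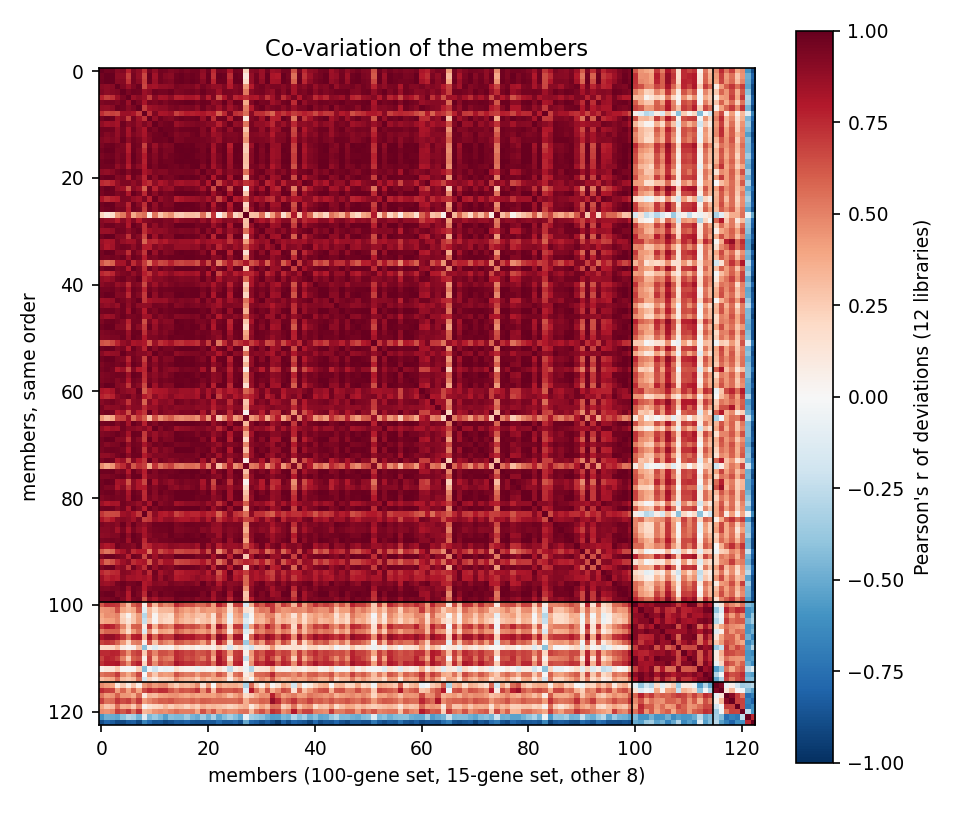
Pearson's r of deviations from group means over 12 libraries (colour) for every pair of the 123 genes, ordered on both axes as the 100-gene set, the 15-gene set and the other 8, with lines between them. The 2 sets appear as separate dark red squares, and the last 2 rows, AMEX60DD039538 and AMEX60DD018238, are blue against nearly all other genes.

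Average-linkage clustering at an average r of 0.7 divided the 123 genes into a set of 100, a set of 15, 3 pairs and 2 single genes. The sets were drawn from the same values, so they are described and not tested. At 0.5 the largest set held the same 100 genes and the second 19. At 0.8 the largest held 83, all from the 100, and the second 15.

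Most of the 100-gene set rose and fell together. The median r within it was 0.919, from 0.024 to 0.999. Its summed share was 12.9%, 25.1% and 21.3% in DMSO distal, 24.8%, 23.8% and 18.7% with 0.1 uM TAL, 27.9%, 22.2% and 22.6% with 1 uM TAL, and 22.6%, 29.8% and 23.4% in the proximal group. DMSO distal 1 was lowest for 99 of its genes, and DMSO proximal 2 highest for 60 and TAL 1 uM distal 1 for 34.

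In DMSO distal 1 all 100 genes were below their group mean, by a median of -0.58, and in DMSO distal 2 all 100 were above it, by 0.40. With 0.1 uM TAL all 100 were above it in replicate 1 and below it in replicate 3. With 1 uM TAL 99 were above it in replicate 1 and 99 below it in replicate 2. The proximal group was less uniform, with 85 above in replicate 2 and 80 below in replicate 1.

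How closely the genes kept step was measured as the within-group SD of each about the set's median. Its own median was 0.10, with a range of 0.02 to 0.34, and 58 of the 100 genes were under 0.1. The closest were AMEX60DD006176 (0.02), AMEX60DD000708 (0.02) and AMEX60DD004712 (0.03), values near the counting error. The farthest were AMEX60DD028252 (0.34) and AMEX60DD013519 (0.28).

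AMEX60DD028252 held 1890, 2778 and 2528 CPM in DMSO distal, 2629, 2411 and 1952 with 0.1 uM TAL, 3410, 2729 and 2394 with 1 uM TAL, and 3074, 1727 and 2519 in the proximal group. It was at its lowest in DMSO proximal 2, the library where 60 genes of the set were at their highest. AMEX60DD006176, by contrast, held 1127 CPM in DMSO distal 1 and 2701 in DMSO proximal 2, its lowest and highest values.

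The pair AMEX60DD016362 and AMEX60DD032685 shows how tight the tightest relations were. AMEX60DD016362 held 981, 2001 and 1771 CPM in DMSO distal, 2046, 2005 and 1662 with 0.1 uM TAL, 2339, 1891 and 1912 with 1 uM TAL, and 1871, 2533 and 1956 in the proximal group. AMEX60DD032685 held 695, 1433 and 1270, then 1454, 1452 and 1200, then 1663, 1347 and 1386, and then 1292, 1700 and 1338. Their ratio stayed between 1.38 and 1.49 while the highest library was 2.58 and 2.45 times the lowest. Their r was 0.999 and rho 1 (permutation p = 1.00e-05 for each, the smallest 100000 resamples can give, adjusted 6.56e-05 and 0.000144), and r was 0.998 without the 2 farthest libraries.

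The other pairs at the top were AMEX60DD017083 with AMEX60DD050541 (r = 0.999) and AMEX60DD048413 with AMEX60DD049299 (r = 0.998). AMEX60DD017083 stood at 1.25 to 1.52 times AMEX60DD050541, and AMEX60DD048413 at 1.70 to 1.86 times AMEX60DD049299. None of the 3 pairs has adjoining identifiers.

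The 15-gene set moved only partly with the 100. The median r within it was 0.859, from 0.554 to 0.989, and between its genes and the 100 it was 0.465 over 1500 pairs, from -0.437 to 0.906. Its summed share was 2.58%, 4.03% and 3.84% in DMSO distal, 2.99%, 2.56% and 4.01% with 0.1 uM TAL, 4.86%, 3.55% and 3.48% with 1 uM TAL, and 3.17%, 4.76% and 1.79% in the proximal group. DMSO proximal 3 was the lowest library for 12 of the 15, and no other of the 123 genes had its lowest value there.

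Both sets were low in DMSO distal 1, and their median deviations had the same sign in every DMSO distal and 1 uM TAL library. They differed in sign with 0.1 uM TAL and in DMSO proximal 1. In DMSO proximal 2 and DMSO proximal 3 they shared a sign but differed in size. In TAL 0.1 uM distal 2, 95 of the 100 genes were above their group mean and all 15 below it. In TAL 0.1 uM distal 3 all 100 genes of the larger set were below their group mean and 14 of the 15 above it. In DMSO proximal 3 the 15 were below it by a median of -0.72, against -0.10 for the 100. The median within-group SD was 0.49 for the 15 and 0.32 for the 100. It was 0.48 and 0.22 without DMSO distal 1, 0.42 and 0.32 without DMSO proximal 2, and 0.37 and 0.34 without DMSO proximal 3. By group, the 15 and the 100 had medians of 0.34 and 0.52 in DMSO distal, 0.33 and 0.21 with 0.1 uM TAL, 0.23 and 0.19 with 1 uM TAL, and 0.76 and 0.23 in the proximal group. The order was thus the other way in DMSO distal.

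AMEX60DD014993 and AMEX60DD014994, with adjoining identifiers, belong to the 15. AMEX60DD014993 held 1329, 2298 and 2286 CPM in DMSO distal, 1605, 1649 and 2172 with 0.1 uM TAL, 2121, 1600 and 1615 with 1 uM TAL, and 1108, 2366 and 846 in the proximal group. AMEX60DD014994 held 2088, 3227 and 3072, then 2552, 2591 and 3030, then 2920, 2309 and 2356, and then 1855, 3957 and 1445. Both were highest in DMSO proximal 2 and lowest in DMSO proximal 3, within 1 group, and their ratio stayed between 0.585 and 0.744 (r = 0.989). The rest of the set includes AMEX60DD014987, AMEX60DD008659, AMEX60DD027994, AMEX60DD010103, AMEX60DD013520 and AMEX60DD017947.

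**Figure D5:**
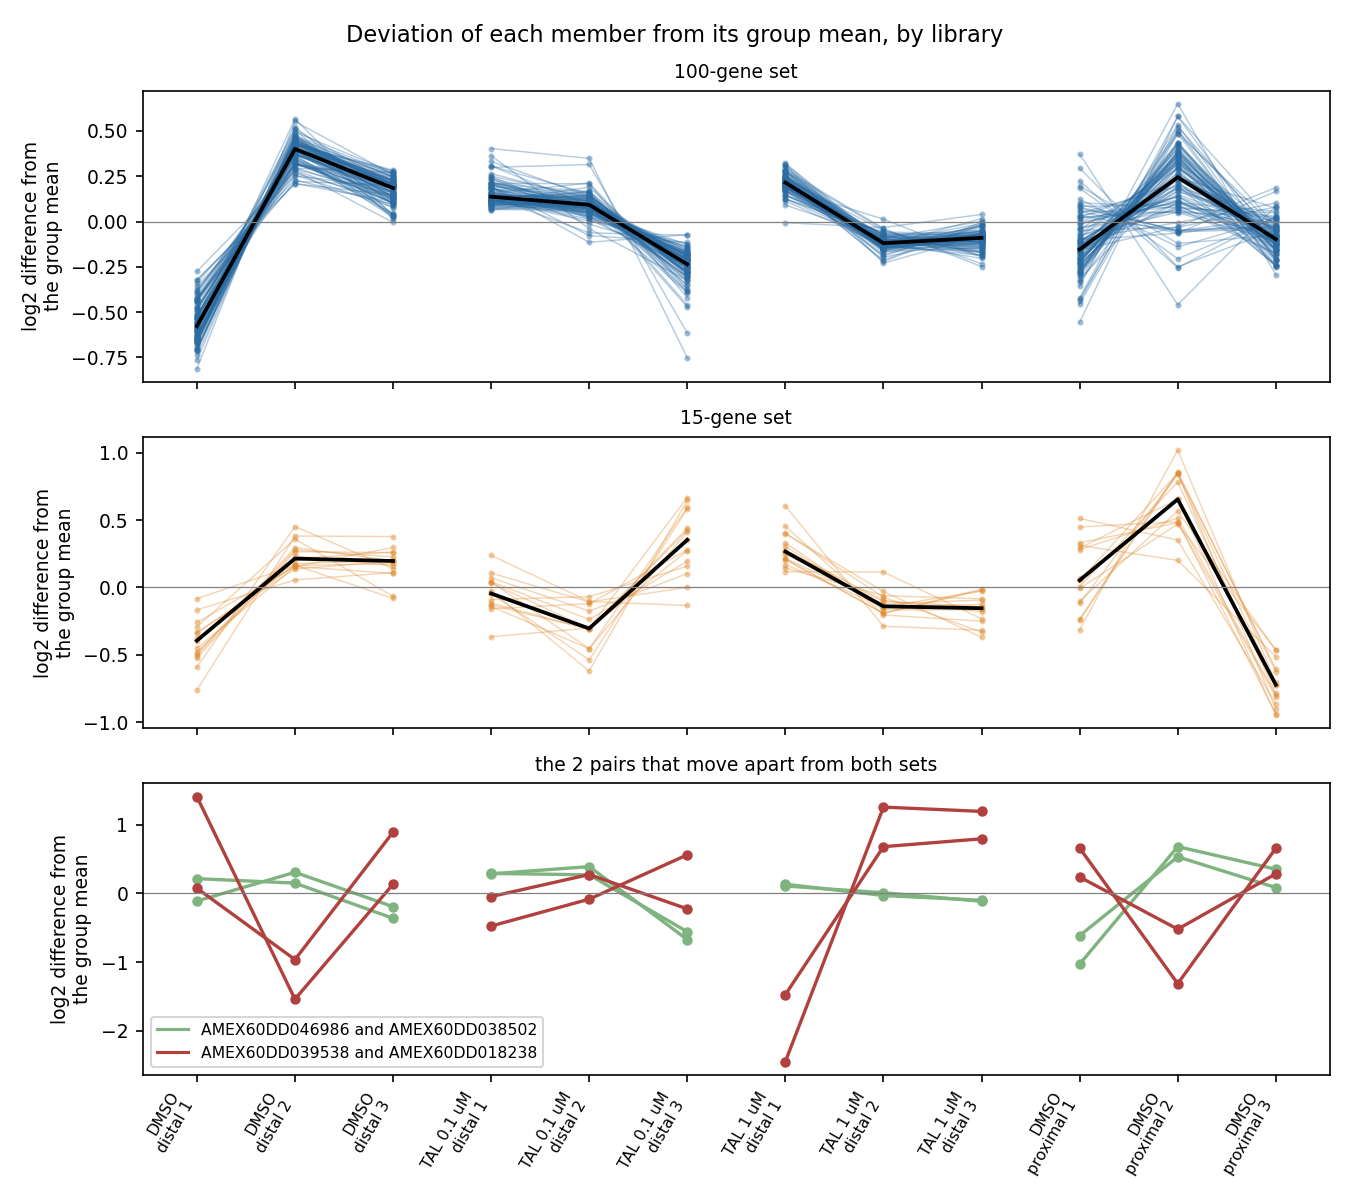
Difference of each gene from its group mean (vertical axes, log2) in the 12 libraries for the 100-gene set, the 15-gene set and 2 pairs, with the median of each set in black. The 100 genes are all below their group mean in DMSO distal 1 and TAL 0.1 uM distal 3, while 14 of the 15 are above it in the latter. AMEX60DD039538 and AMEX60DD018238 are lowest where the sets are high.

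AMEX60DD046986 followed neither set. The gene most like it was AMEX60DD038502, which held 3204, 4282 and 3027 CPM in DMSO distal, 5330, 5257 and 2960 with 0.1 uM TAL, 4123, 3679 and 3507 with 1 uM TAL, and 3509, 7769 and 5699 in the proximal group. Its 4 highest libraries were also the 4 highest of AMEX60DD046986. Their r was 0.932 and rho 0.818 (permutation, adjusted p = 7.37e-05 and 0.00406), and r was 0.824 without the 2 farthest libraries.

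The next were AMEX60DD051780 (r = 0.633) and AMEX60DD010261 (r = 0.597). The first passed the adjustment (permutation p adjusted 0.036), but r was 0.346 without 2 libraries, so it rests on those. The second did not pass (permutation p adjusted 0.054). At the other end stood AMEX60DD017947 (r = -0.562), AMEX60DD033277 (r = -0.531) and AMEX60DD008659 (r = -0.392), with adjusted permutation p of 0.075, 0.0953 and 0.241, none past the threshold.

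A second pair, AMEX60DD020312 and AMEX60DD038501, had an r of 0.911. AMEX60DD020312 held 3765, 4770 and 3715 CPM in DMSO distal, 4177, 3135 and 3942 with 0.1 uM TAL, 5567, 3669 and 4498 with 1 uM TAL, and 5202, 5432 and 4140 in the proximal group. Its lowest library was TAL 0.1 uM distal 2, where the 100-gene set was above its group mean. The 2 single genes were AMEX60DD020807, from 2299 to 6342 CPM, and AMEX60DD016342, from 769 to 1559 CPM.

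AMEX60DD039538 and AMEX60DD018238 ran against the other genes. AMEX60DD039538 held 3198, 1558 and 5626 CPM in DMSO distal, 4392, 5485 and 3878 with 0.1 uM TAL, 472, 6140 and 5880 with 1 uM TAL, and 5295, 1350 and 5286 in the proximal group. AMEX60DD018238 held 7707, 1000 and 3185, then 2298, 3014 and 4715, then 1214, 5394 and 5839, and then 2880, 1702 and 2973. Both genes had their 3 lowest values in TAL 1 uM distal 1, DMSO proximal 2 and DMSO distal 2, which belong to 3 different groups, so no group stood apart.

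Of the 122 other genes, 121 had a negative r with AMEX60DD039538, and AMEX60DD018238 (r = 0.746) was the exception. The 3 lowest r of all pairs belonged to AMEX60DD018238, with AMEX60DD053480 (-0.961), AMEX60DD026859 (-0.933) and AMEX60DD010367 (-0.932). Each had an adjusted permutation p of 6.56e-05, and r without 2 libraries was -0.937, -0.897 and -0.927. Because CPM values of a library share 1 total, a gain in some genes lowers others, and these p-values are approximate. AMEX60DD053480 is 1 of the 5 steadiest genes, at 1649, 2748 and 2212 CPM in DMSO distal, 2458, 2326 and 1970 with 0.1 uM TAL, 3088, 2388 and 2357 with 1 uM TAL, and 2488, 2548 and 2322 in the proximal group. The ratio of AMEX60DD018238 to it ran from 0.364 to 4.67.

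These 2 genes resembled those left out for their span. Of the 27, 17 had an r above 0.7 with AMEX60DD039538, with a median over the 27 of 0.767 and a highest value of 0.934 with AMEX60DD018237, whose identifier adjoins AMEX60DD018238. Against the 100-gene set the median r of the 27 was -0.720, and 18 of them were below 0. AMEX60DD016881, first of the 150 by mean L, ranged from 3214 CPM in TAL 1 uM distal 1 to 58295 in DMSO distal 1. Of the 27, 15 had their 3 lowest values in the same 3 libraries as AMEX60DD039538 and AMEX60DD018238, whose own group means spanned 0.82 and 0.46.

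Among the 123 genes, 11 pairs had identifiers at most 3 numbers apart. Whether the numbers follow position in the genome is not given in the sources used here. The median r of the 11 was 0.957, against 0.843 over all pairs of the 123 genes and 0.919 within the 100-gene set. Most of the 11 pairs lay in that set, so nothing is read from this difference. In 7 of the 11 both genes were in the same set. The 100-gene set makes this so for most pairs of any of the 123, so nothing is read from that count. AMEX60DD013519 and AMEX60DD013520 were the exception with a negative r, -0.128.

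AMEX60DD013519 held 2215, 4870 and 3608 CPM in DMSO distal, 5962, 5741 and 2677 with 0.1 uM TAL, 4598, 4047 and 4320 with 1 uM TAL, and 4666, 5105 and 5932 in the proximal group. AMEX60DD013520 held 1741, 2651 and 2927, then 1887, 1667 and 2803, then 3952, 2846 and 2378, and then 2416, 4141 and 1395. Their ratio ran from 0.955 in TAL 0.1 uM distal 3 to 4.25 in DMSO proximal 3. Estimated counts divide reads that match several genes, and the strand setting is not given in the sources used here. The values of such neighbours are therefore uncertain, and how far was not tested.

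Choosing the genes again with 1 library held out gave 119 to 137 identifiers, of which 117 to 123 were among the 123. Between 89.5% and 99.2% of those chosen were among the 150 most abundant in the library held out, which the choice had not used. The lowest of these values belonged to DMSO distal 1 and the next to TAL 1 uM distal 1. Without TAL 1 uM distal 1 the list grew to 137, taking in 15 of the 27 left out, AMEX60DD016881 among them, and the median share of the list over the other 11 libraries became 43.3%. The genes dropped in more than 1 such repeat were AMEX60DD008659, AMEX60DD039538, AMEX60DD041731, AMEX60DD018238, AMEX60DD046986, AMEX60DD017947 and AMEX60DD010103.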

How the data were processed

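The deposited table gives the authors' estimated count for each gene identifier and library, from 150-bp reads of total RNA. Trimmomatic 0.38 and Salmon 0.13.1 are named in the submitters' processing notes. The index, annotation release, strand setting and filters are not given in the sources used here. Of the values of the 123 genes, 0.813% were whole numbers. Of the table's 15 library columns, 12 matched a sample title, and the other 3 were left unused. Groups and replicate numbers came from the sample titles.

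Shares, CPM and L were computed from the estimated counts on column totals over all identifiers, with Python 3.11.15 and SciPy 1.17.1. Group tests used edgeR 4.0.16 (counts rounded to whole numbers, filterByExpr, TMM, glmQLFit and glmQLFTest, 1 fit of 12 libraries, Benjamini-Hochberg adjustment over 41884 identifiers), with DESeq2 1.42.0 as an alternative. The edgeR step was tried on data simulated from the means, column totals and dispersions of all 12 libraries (36325 identifiers tested). There, 200 identifiers were changed 4-fold in DMSO proximal. It called 48.5% of them for DMSO proximal against DMSO distal. The 200 were drawn from identifiers above a CPM floor with a dispersion below the median, so the figure does not hold for identifiers in general. Tests of single values are two-sided permutation tests. Wilson intervals cover counting error only.

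The genes and lists were chosen with earlier results of these data known. Named by rule were the 10 genes with the highest mean L, the 5 steadiest and 5 most variable, the 3 most and 3 least like the most abundant gene, the 3 pairs with the highest and the 3 with the lowest r, and those at the limits. Those named beyond that rule (the neighbours by identifier, the genes of the sets, those that left or entered a repeated choice, and AMEX60DD016881) were chosen after their values were seen. Lists of cell type markers and pathway genes could not be applied because no identifier had a symbol. Sequences are not printed for the same reason.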

Additional observations from a re-analysis of the deposited data

How the results depend on the processing

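Under TMM, DESeq2 size factors, a pseudocount of 5 or a column total over AMEX60DD identifiers alone, 123 to 125 genes were chosen, and the median share on that last total was 32.9%. The median within-group SD was 0.31 (TMM), 0.27 (DESeq2 size factors) and 0.33 (pseudocount 5), and the median r was 0.829 (TMM), 0.792 (DESeq2 size factors) and 0.799 (L itself over 12 libraries). Centring each library on its median gene, an alternative chosen after seeing the data, moved the median SD to 0.13 and the median r to 0.107, since it removes what the genes share. Choosing again with 1 library left out gave 119 to 137 genes. For the 123 genes as chosen, leaving out 1 library at a time gave a median share of 28.8 to 29.2%, a median SD of 0.23 to 0.35, a median r of 0.719 to 0.906 and 0 genes called. The r of the share with the column total, which passed no test, ran from -0.132 to 0.410 and was -0.0601 without DMSO distal 1. On column totals the median difference of 0.1 uM TAL from DMSO distal reversed to -0.0502 without DMSO distal 1. The median over the 16104 identifiers was then -0.157. Without that library it stayed positive for the 123 genes under TMM (0.0405) and DESeq2 size factors (0.0973). The reversal is thus one on column totals, and its cause was not tested. Without that library the SD of 8 named genes fell by more than 1.5 times: AMEX60DD034248 from 0.40 to 0.24, AMEX60DD016362 from 0.32 to 0.19, AMEX60DD032685 from 0.32 to 0.17, AMEX60DD049299 from 0.38 to 0.23, AMEX60DD048413 from 0.34 to 0.22, AMEX60DD001331 from 0.27 to 0.16, and AMEX60DD013534 (from 0.28 to 0.19) and AMEX60DD003045 (from 0.23 to 0.16) just past that line. Same-numbered libraries did not deviate together (mean r -0.00448 over 18 pairs, 1 of them over 0.1), so the numbers were not taken to pair them. With the replicate block the median SD was 0.35 and edgeR called 0 of the 123 genes, with 8 at an unadjusted p under 0.05 for DMSO proximal against DMSO distal (4.68% of all identifiers) and 1 or 2 in the others (2.25 to 4.73% of all). Without a filter beyond a count above 0 edgeR also called 0. With 3 pools a group, an exact permutation test of single genes cannot go below 0.1. Counting error was small for the 123 genes, at 4665 estimated counts or more in every library. The part of depth in the shares was not tested further.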
